A study of Mus musculus with 12 samples.

Results

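Cytosolic translation factors and tRNA synthetases were examined in single cultured cardiac progenitor cells (CPCs). The genes were taken by name: initiation factors Eif1 to Eif6, without the eIF2 kinases and without Eif2s3x and Eif2s3y, elongation factors Eef1 and Eef2, and the synthetases of the cytosol whose symbol is a letter followed by ars, with Eprs. The rule found 77 of the 21729 genes in the count table, of which 18 were synthetases and 59 were factors or proteins named after them. The cells were c-Kit+ and lineage-negative at isolation from the hearts of female FVB mice aged 12 weeks, were grown as adherent cultures in medium with serum, leukemia inhibitory factor, basic fibroblast growth factor and epidermal growth factor, and had been passaged 5 times. Full-length cDNA was made from 12 such cells (CPC1 to CPC12) with the Smart-Seq v4 kit. Hearts were pooled for a culture, and the labels tie no cell to an animal or a dish, so the 12 cells count as 1 sample of 1 group. All values below describe the spread between these cells, and no test was made across them.

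Protein synthesis begins with tRNA synthetases, each of which joins an amino acid to its tRNA. The eIF2 complex then brings the initiator tRNA to the small ribosomal subunit, eIF3 holds the subunit open, eIF4 factors bind the mRNA cap and unwind the leader, and the elongation factors eEF1 and eEF2 move the ribosome along the message. When an amino acid is short or the cell is stressed, eIF2 is phosphorylated, its exchange factor eIF2B is blocked and the transcription factor Atf4 is made, which raises several synthetases and enzymes of amino acid synthesis. The kinase mTOR sets the use of eIF4E through its binding proteins and favours messages that start with a pyrimidine tract (TOP mRNAs), which code for ribosomal proteins and several of these factors.

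The cells had total counts between 3453708 in CPC1 and 5690184 in CPC12. Levels are given as CPM, the count of a gene scaled to a total of 1000000 per cell, and a gene with no count could lie at up to 3 counts, or 0.527 to 0.869 CPM. This limit covers counting error only, because reads were not tagged as molecules. Kit, the gene of the receptor used for the sort, had counts in 1 of 12 cells, CPC10, at 3.94 CPM. CPC10 also stood apart by endothelial markers (Pecam1, Cdh5, Kdr, Emcn and Esam), which summed to 6830.5 CPM there and to at most 41.4 CPM in the other cells. Blood markers (Ptprc, Cd68, Lyz2 and Csf1r) were highest in CPC3 at a sum of 158 CPM, with the next cell at 75.6 CPM, and Ptprc was at 0 in CPC3. The fibroblast genes Dcn and Pdgfra were also highest there, at 223 and 276 CPM, whereas Col1a1 and Col1a2 were low there, at 12.9 and 22.1 CPM beside medians of 167 and 690.2 CPM. On the CPM scale CPC3 was the lowest cell for many sums given below. By median-of-ratios size factors, which scale on genes counted in every cell, CPC3 stayed lowest for the elongation factors. It was then not the lowest for the synthetase, initiation, eIF3 or eIF4 sums. The part of these cell type markers in the low sums of CPC3 was not tested. The cardiomyocyte genes Myh6, Myh7 and Actc1 had no count in any cell and Tnnt2 had counts in 10 cells, at up to 86.6 CPM. Of the 5 fibroblast markers, 4 were counted in every cell, beside 35.3% of all genes, but only 1 reached 10 CPM in all cells. Col1a2 had 2 counts in CPC10 and Pdgfra 1 count in CPC2, within the limit of 3 counts. Genes of dividing cells (8 genes) summed to between 113 CPM in CPC7 and 4090.0 CPM in CPC8.

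Nearly the whole translation set was counted in each cell. Of the 77 members, 71 (92.2%) had a count in all 12 cells, beside 35.3% of all genes, and 68 (88.3%) reached 10 CPM in every cell, beside 21.5% of all genes. Together the members took between 1.496% of the counts in CPC3 and 3.18% in CPC9. All 18 synthetases, all 14 eIF3 subunits, all 5 eIF2B subunits and all 10 factors of the ternary complex, start codon selection and subunit joining were counted in each cell. Eef1a2, Eif4e1b and Eif4ebp3 had no count in any cell, and another gene on the same strand covers 67.3% of the exon bases of Eif4ebp3, so its reads may have been dropped or given to that gene. The first is the eEF1A form of muscle and neurons, and the second is a form of the cap-binding protein known from oocytes. Eif4ebp2, Eif4e3 and Eif5a2 had no count in 1, 1 and 2 cells, which were CPC7, CPC10 or both. By median level, 52 members reached 100 CPM, 17 lay between 20 and 100 CPM and 5 had counts below 20 CPM.

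To compare genes with each other, CPM was divided by the length of the exons. Eef1a1, which delivers charged tRNAs to the ribosome, was the highest member at a median of 2286 CPM per kilobase. It was followed by Eif1, which guards the choice of the start codon, at 905, and by Eif5a, which eases peptide bond formation, at 749.8 CPM per kilobase. The order of these 2 depends on the length used, since Eif5a had 1389 and Eif1 905 CPM per kilobase of the median transcript. The synthetases lay between 19.5 (Vars) and 167 CPM per kilobase (Nars). Eif1 and Eef1a1 have 19 and 15 annotated pseudogene transcripts that match them at 90% identity or more over at least 300 bases. Reads shared with such copies are dropped when only unique alignments are kept, so both levels are uncertain.

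**Figure D1:**
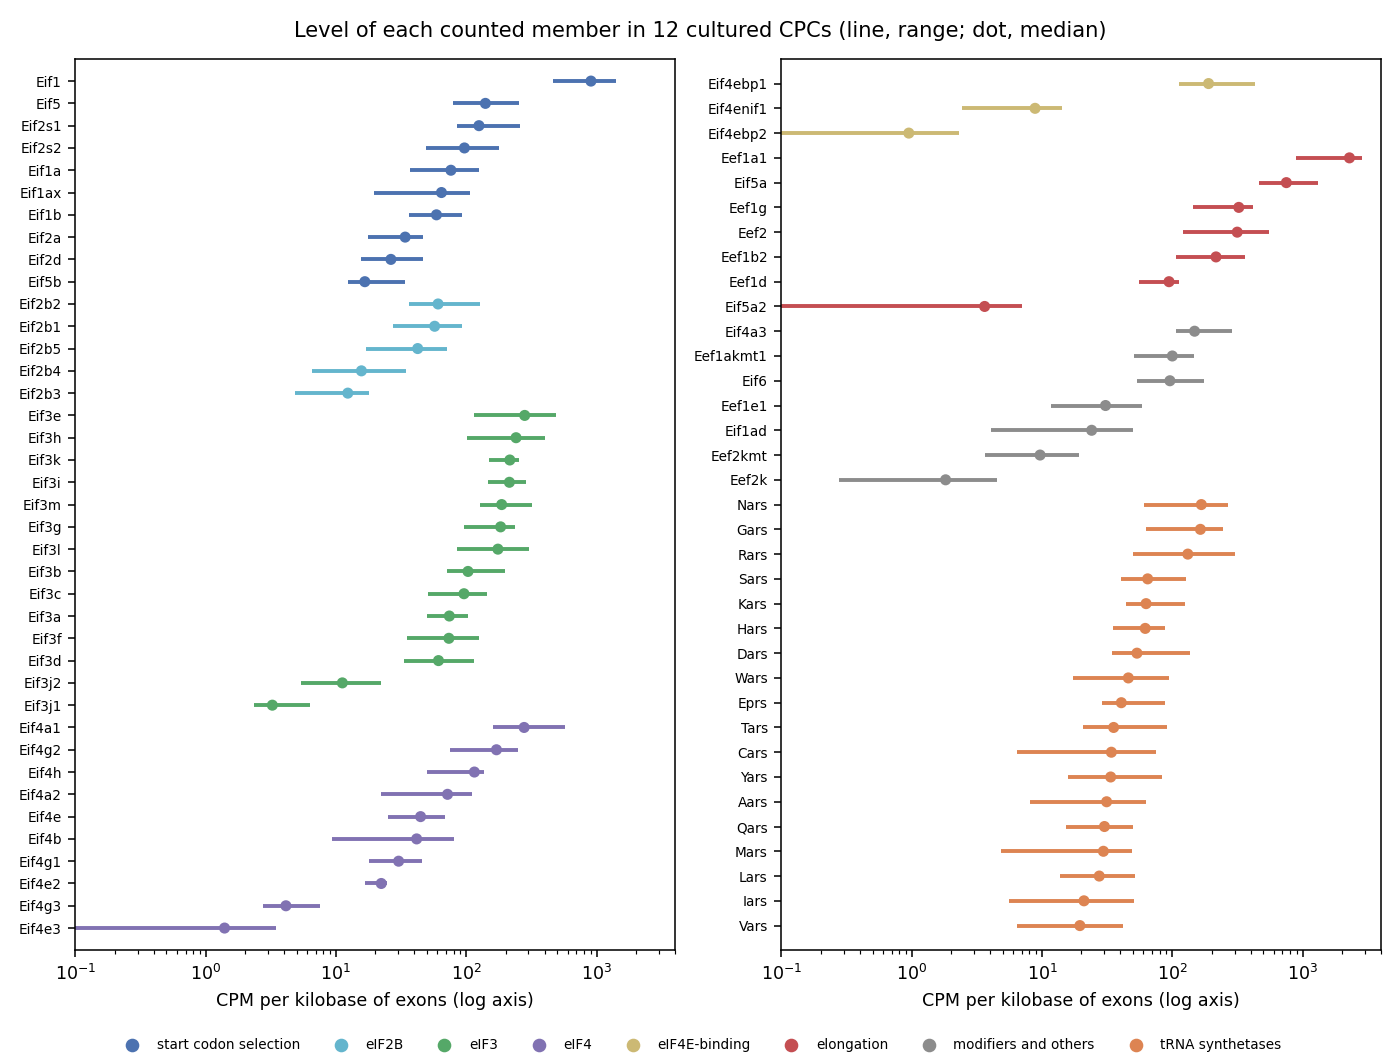
Level of the 74 members that had a count, in CPM per kilobase of exons on a log axis; lines span the lowest to the highest of 12 cells, dots are medians, colours give the role, and lines that reach the left edge start at 0. Eef1a1, Eif1 and Eif5a lead, and the 18 synthetases have medians of 19.5 to 167.

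The synthetases varied more from cell to cell, as a sum, than the initiation or elongation factors, with a coefficient of variation of 32.9% against 17.0% and 22.7%. By the highest over the lowest cell the elongation factors spanned more, 2.81-fold (1.57-fold without CPC3) against 2.37-fold. The summed synthetase level ran from 2280.0 CPM in CPC3 to 5395 CPM in CPC9, with a median of 3081 CPM. The next cells below CPC9 were CPC2 at 4773 CPM and CPC12 at 4505 CPM. In CPC9 all 18 synthetases were above their own median, and in CPC6 only 1 was. On the CPM scale the cells fell into a lower range of 6 cells (CPC1, CPC3, CPC5, CPC6, CPC10 and CPC11) at 2280.0 to 2614 CPM and an upper range of 6 cells at 3547 to 5395 CPM. The step between the ranges was 1.36-fold by CPM and 1.18-fold by median-of-ratios size factors, where it was no longer the widest step between neighbouring cells.

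Single synthetases differed in level and in spread. Nars, for asparagine, ran from 176 (CPC1) to 781 CPM (CPC9), with a median of 489 CPM. Gars, for glycine, ran from 149 (CPC3) to 583 CPM (CPC12), with a median of 391 CPM. Rars, for arginine, ran from 106 (CPC7) to 642 CPM (CPC9), with a median of 277 CPM. These 3 had the highest median CPM of the role, with no correction for length. CPC9 held the highest value of Nars and Rars, and CPC3 the lowest of Gars.

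Spread was compared with genes of like level by the dispersion residual, which takes the coefficient of variation of CPM, squares it, puts it on a log10 scale and subtracts the running median of genes with a near mean. A residual of 0 is the middle of such genes, and the median over all 9701 genes with a residual was 0.00. The median over the 18 synthetases was 0.08, and 13 of them lay above 0. Aars, for alanine (chromosome 8, 111033144 to 111057664, mm10), had the largest residual of all members, 0.34. Its level ran from 46.8 (CPC6) to 364 CPM (CPC9), with a median of 180.0 CPM. Another gene, Exosc6, covers 23.1% of the Aars exon bases on the same strand, so part of this count may belong to it. Rars followed at a residual of 0.29. Hars, for histidine, was the most even synthetase at -0.31, with a lowest, median and highest level of 69.1, 123 and 174 CPM.

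The remaining synthetases are given by their lowest, median and highest cell. Sars, for serine, had 147, 235 and 466 CPM. Eprs, a fused enzyme for glutamate and proline, had 141, 199 and 434 CPM. Tars, for threonine, had 82.6, 142 and 367 CPM. Tars was lowest in CPC6 and highest in CPC9, and Eprs was highest in CPC12. Kars (lysine) had 98.9, 141 and 283 CPM. Wars (tryptophan) had 49.8, 132 and 270.2 CPM. Dars (aspartate) had 84.8, 132 and 338 CPM. Dars and Kars were again highest in CPC9. Cars (cysteine) had 20.7, 109.7 and 240.2 CPM, and the low value was that of CPC10. Lars (leucine) had 54.7, 109 and 205 CPM. Yars (tyrosine) had 46.4, 97.9 and 243 CPM. Yars was highest in CPC7, unlike most others. Iars (isoleucine) had 24.5, 92.9 and 226 CPM. Mars (methionine) had 14.2, 87.6 and 145 CPM, and both were lowest in CPC3. Qars (glutamine) had 42.7, 84.3 and 140.4 CPM. Vars (valine) had 26.6, 80.7 and 174 CPM. Qars was highest in CPC10.

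The synthetases known as Atf4 targets moved together across cells. These are Aars, Cars, Eprs, Gars, Iars, Mars, Nars, Sars, Tars, Wars and Yars. Spearman's rho between the levels of 2 genes over the 12 cells had a median of 0.71 over their 55 pairs, all of which were positive. The median was 0.14 over the 21 pairs of the other synthetases (-0.027 without CPC9 and 0.28 without CPC1), 0.54 over all 153 synthetase pairs and 0.02 over all pairs of the 9701 genes. Of all these gene pairs 52.3% were positive. The cells share a culture, a library preparation and the CPM denominator, and these values are a description with no test. Within the lower range of 6 cells the median over the 55 pairs was 0.14, and within the upper range 0.31. The other synthetases had 0.03 and 0.26 within the same ranges, so the lists lay closer together there. The ranges were drawn from the synthetase sum itself. Between a target and another synthetase the median over the 77 pairs was 0.42, with 66 pairs positive. The closest pair was Yars with Aars (rho 0.91) and the farthest was Cars with Qars (rho -0.41). Hars with Nars (0.88) and Eprs with Lars (0.87) each joined a target to a synthetase not listed as one. Among pairs with neither gene listed, Hars with Lars had 0.76 and Kars with Qars -0.17, so close pairs were not confined to the listed targets.

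Grouping by complex gave another split of the same genes. The 8 synthetases of the multi-synthetase complex (Dars, Eprs, Iars, Kars, Lars, Mars, Qars and Rars) had a median rho of 0.36, and the 10 outside it had 0.69. Of the 10 outside the complex, 8 are also Atf4 targets, so the splits overlap in large part and were not separated. Eprs, Iars and Mars are targets inside the complex, and Hars and Vars lie outside it and are not listed as targets. The scaffold genes Aimp1 and Aimp2, with Farsa and Farsb for phenylalanine, had sums from 256 CPM in CPC11 to 711 CPM in CPC9, with a median of 386 CPM. Aimp2 alone was highest in CPC2, as was Eef1e1, the remaining scaffold gene and a member, which ran from 29.9 (CPC10) to 149 CPM (CPC2), with a median of 78.4 CPM.

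**Figure D2:**
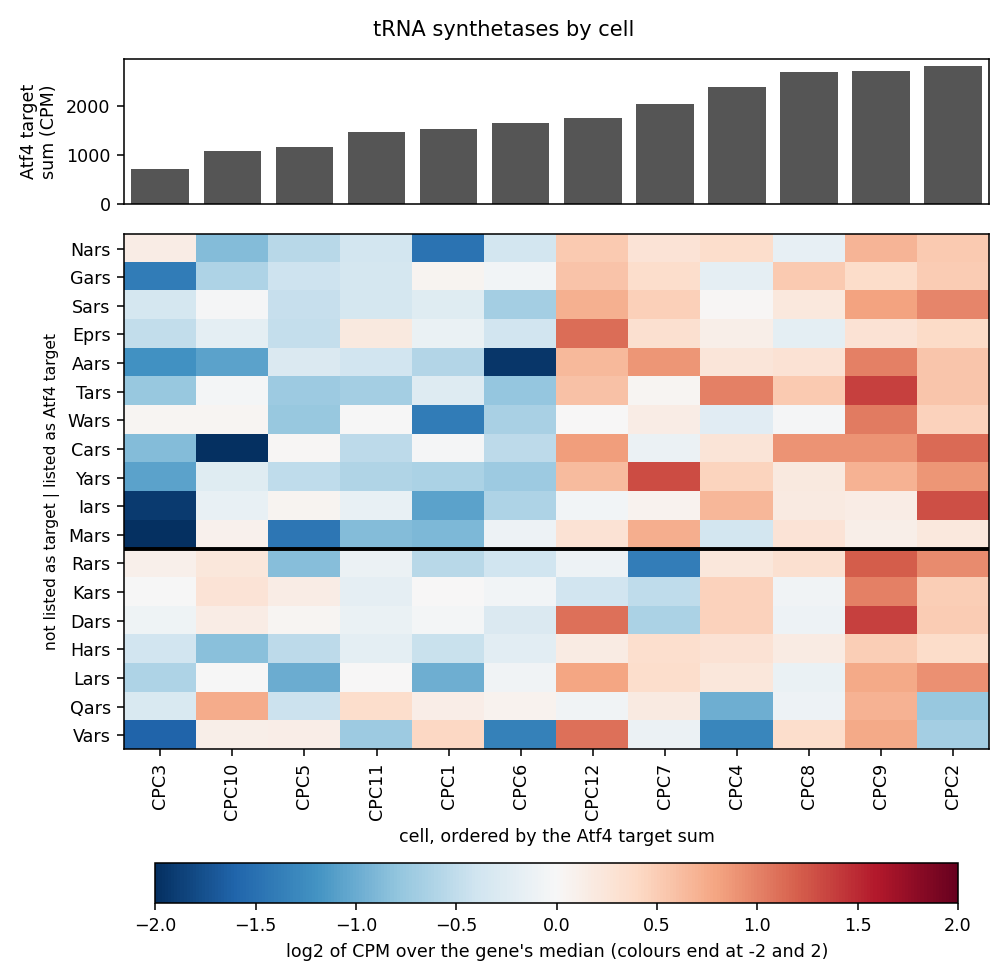
Upper panel, summed CPM of Atf4 and 11 of its targets in each cell; lower panel, log2 of the CPM of each synthetase over its own median, with the cells ordered by the Atf4 target sum and the Atf4 targets above the line. The 6 cells on the right are the 6 cells of the upper synthetase range, and Qars and Vars are below their medians in CPC2 and CPC4.

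The synthetase level was then set beside Atf4 and 11 of its targets that are not synthetases. This sum ran from 708 CPM in CPC3 to 2813 CPM in CPC2, with a median of 1707 CPM. The 6 cells with the highest Atf4 target sums were the 6 cells of the upper synthetase range, which is a description of 2 sums that share a denominator. Over all 12 cells Spearman's rho of the sums was 0.83. Within the lower and the upper range it was 0.26 and 0.37, over 6 cells each. Pearson's r of the log2 sums was 0.78 over 12 cells and 0.68 without CPC2 and CPC9, the cells farthest from the median Atf4 target sum. With Phgdh, the most abundant target, left out of the sum, 5 of the 6 cells were shared, with CPC6 in place of CPC7, and with Atf4 left out 5 were shared, with CPC6 in place of CPC12. When the genes of each list were weighted alike, Pearson's r was 0.58.

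The Atf4 targets did not move as 1 block. Spearman's correlation with the synthetase sum was 0.86 for Asns (asparagine synthesis), 0.82 for Slc3a2 (an amino acid carrier subunit), and 0.70 and 0.66 for Psat1 and Phgdh (both of serine synthesis). It was 0.68 for Trib3 and 0.59 for Chac1, both raised in stress. Atf4 itself ran from 88.1 (CPC3) to 492 CPM (CPC9), with a median of 294 CPM, and had a rho of 0.59. Sesn2 had 0.29, the cystine carrier Slc7a11 0.07 and Vldlr 0.03, while the stress factors Ddit3 and Atf3 had -0.20 and -0.48. Ddit3 was highest in CPC3 (276 CPM), the cell with the lowest Atf4, and nearly equal in CPC6 (274 CPM), both of the lower synthetase range. The next cells were CPC4 (244 CPM) and CPC2 (189 CPM), both of the upper range.

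Taken gene by gene, 10 of the 11 Atf4-target synthetases had a rho of 0.5 or more with the Atf4 target sum, beside 3 of the other 7 and 9.99% of all 9701 genes. Wars, at 0.36, was the listed target below that line. Among the others, Hars had 0.90, the highest of all members, Lars 0.66 and Rars 0.53, whereas Qars had -0.21. The relation was not particular to the synthetases. The eIF3 sum had a rho of 0.78 with the Atf4 target sum and a Pearson's r of 0.78, or 0.78 without CPC2 and CPC9, and the start codon factors had a rho of 0.69. By gene, Eif5a had 0.86, Eif3d 0.80 and Eif3l 0.78. The synthetase sum had a rho of 0.34 with the total count of the cell and of 0.23 with the genes of dividing cells.

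**Figure D3:**
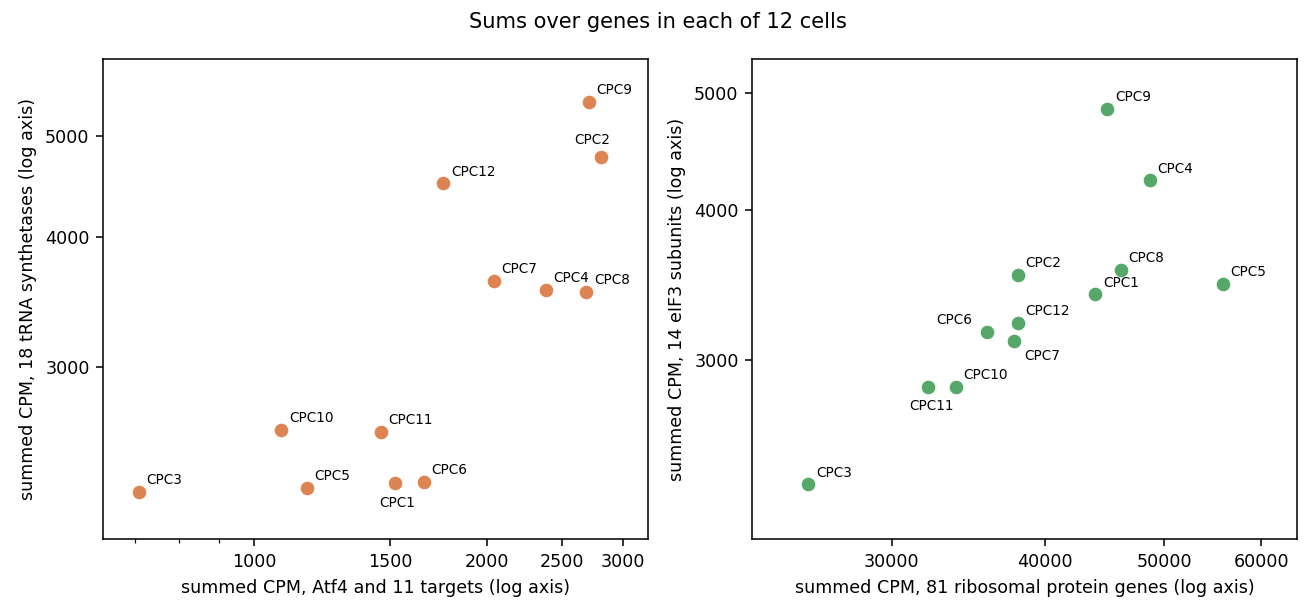
Summed CPM in each of 12 cells on log axes: the 18 synthetases against Atf4 and 11 targets on the left, the 14 eIF3 subunits against 81 ribosomal protein genes on the right. On the left 6 cells lie at or below 2614 CPM and 6 at or above 3547 CPM on the vertical axis, and on the right CPC3 is lowest on both axes.

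Promoters of the members were searched for the element through which Atf4 acts, because the synthetases listed as its targets moved together. The core TGATGNAA of the C/EBP-ATF response element was looked for on both strands from 250 bases before to 50 bases after the annotated start (RefSeq, GRCm38.p6, the assembly of mm10). Promoter sequences were matched for 55 of the 77 members, 11 of them synthetases. The core was present for Aars, Gars, Iars, Tars and Yars, which are 5 of the 8 matched Atf4-target synthetases, for 0 of the 3 other matched synthetases (Dars, Kars and Qars), for 1 of 44 factors (Eef2k) and for 4.51% of all genes with a promoter. It was not found in these windows of Eprs, Mars and Sars. A match for each gene is shown with 11 bases on either side, in the direction of the gene and with the core in capitals, which appears as its reverse complement where it lies on the opposite strand. A match is a description of the letters, and binding was not measured.
Aars (chr8:111033840-111033869, plus strand): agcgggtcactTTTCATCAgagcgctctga
Gars (chr6:55037960-55037989, plus strand): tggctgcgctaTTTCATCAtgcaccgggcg
Iars (chr13:49682126-49682155, plus strand): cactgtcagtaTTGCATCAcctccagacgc
Tars (chr15:11399655-11399684, minus strand): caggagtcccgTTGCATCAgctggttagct
Yars (chr4:129189895-129189924, plus strand): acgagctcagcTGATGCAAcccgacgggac
Eef2k (chr7:120851094-120851123, plus strand): ctttctgcttgTTTCATCAagctcagcttg
The 5 synthetases with the core had a rho with the Atf4 target sum of 0.74 (Aars), 0.81 (Gars), 0.82 (Iars), 0.76 (Tars) and 0.75 (Yars). Eprs, Mars and Sars, without it in the window, had 0.67, 0.66 and 0.76, and Eef2k, the kinase of eEF2, had -0.12. The E-box CACGTG, read by Myc and related factors, was present for 15 of the 55 members (27.3%) and for 8.09% of all genes. Its carriers included the synthetases Aars, Iars and Tars and the factors Eif4e, Eif4a1, Eif4g1, Eif5a and Eef2. The consensus site of Nrf1 was present for 10 of the 55 members (18.2%) and for 5.19% of all genes. A start like that of TOP mRNAs, a C within 3 bases of the annotated start followed by at least 4 pyrimidines, was present for 2 of the 5 matched TOP members (Eef1a1 and Eif3f), for 7 of the 50 others and for 13.5% of all genes. The starts in use in these cells were not measured. A tract found or missed here describes the annotated start only, which may lie away from the start in use.

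The initiation factors spanned a narrower range than the synthetases. The 40 genes of eIF1, eIF2, eIF2B, eIF3, eIF4, eIF5 and eIF5B had sums from 7648 CPM in CPC3 to 13921 CPM in CPC9, with a median of 10101 CPM, a 1.82-fold range beside 2.37-fold for the synthetases. By CPM CPC3 was lowest and CPC9 highest. With median-of-ratios size factors CPC6 was lowest and CPC4 highest, and the range was 1.47-fold beside 2.26-fold for the synthetases. Genes counted in every cell put CPC3 at 0.846 and CPC9 at 1.13 times the scale that their totals give, and with size factors the range of the elongation factors was 2.43-fold.

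Eif1 was the most abundant factor of start codon selection and ran from 615 (CPC10) to 1871 CPM (CPC8), with a median of 1196 CPM. Eif5, which triggers GTP hydrolysis by eIF2, ran from 335 (CPC1) to 1064 CPM (CPC4), with a median of 591 CPM. Eif2s1, the eIF2 subunit that stress kinases phosphorylate, ran from 288 (CPC11) to 881 CPM (CPC9), with a median of 426 CPM. Each of these 3 stayed above 200 CPM in every cell. Eif1ax (X-linked) and Eif2s1 had the largest residuals of the role, 0.08 and 0.04, and Eif2a, a factor of alternative initiator tRNA delivery, the smallest, -0.37. Eif1 exceeded its paralogue Eif1b per kilobase in 12 of 12 cells, by a median of 14.8-fold and at most 32.0-fold. Eif1a and Eif1ax had a ratio of 0.693 in CPC2 to 4.24 in CPC10, and Eif1a was the higher in 8 of 12 cells, but this pair depends on the length used, since the median ratio was 1.13 per exon kilobase and 2.40 by transcript length.

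The 5 subunits of eIF2B, the exchange factor that recharges eIF2 with GTP, had sums from 263 CPM in CPC1 to 601 CPM in CPC9, with a median of 424 CPM. Eif2b1 (55.2, 115 and 187 CPM in the lowest, median and highest cell), Eif2b5, the catalytic subunit (43.1, 108 and 183 CPM), and Eif2b2 (58.5, 97.4 and 204 CPM) had the highest median CPM, uncorrected for length. Eif2b2 and Eif2b4 had the largest residuals, 0.02 and -0.12, and Eif2b3 the smallest, -0.21. The 6 genes of eIF2 kinases and of the phosphatase that reverses them were counted in every cell, and 3 of them reached 10 CPM in all cells. The highest value among them was that of Ppp1r15a, a phosphatase subunit raised by stress, at 377 CPM in CPC7.

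The eIF3 complex was the most even role, with a median residual of -0.26 and 12 of 14 subunits below 0. Its sum ran from 2364 CPM in CPC3 to 4858 CPM in CPC9, with a median of 3310.3 CPM. Eif3e, Eif3a and Eif3l had the highest median CPM, uncorrected for length. Eif3e ran from 173 (CPC7) to 735 CPM (CPC4), with a median of 423 CPM, and had the largest residual of the complex, 0.03, followed by Eif3f, 0.00. Eif3k was the evenest subunit, at 159.5 (CPC3) to 273 CPM (CPC7), with a median of 232 CPM, and had a residual of -0.67. Only 1.07% of all genes lay lower. Eif3j1 and Eif3j2 are close copies whose reads can be split or dropped, and another gene covers 32.9% of the exon bases of Eif3d, so their single levels are uncertain.

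The role sums were set beside the ribosomal proteins. For eIF3, Spearman's rho with the sum of 81 ribosomal protein genes was 0.88 over the 12 cells, beside 0.73 for the start codon factors, 0.34 for the elongation factors and 0.24 for the synthetases. Pearson's r of the log2 sums was 0.78 for eIF3, 0.62 for the elongation factors, 0.59 for the start codon factors and 0.24 for the synthetases. These sums share cells and a denominator, and the differences between the values were not tested. Without CPC3 and CPC10, a pair chosen after seeing the data, Pearson's r of the eIF3 relation was 0.60, against 0.78 with all cells. Without CPC3 and CPC5, the cells farthest from the median ribosomal protein sum, Pearson's r was 0.82 for eIF3 and 0.62 for the start codon factors. The elongation factors then had 0.40 and the synthetases 0.37. By gene, 6 of 14 subunits had a rho of 0.5 or more with the ribosomal proteins, as had 4 of 7 elongation factors, 2 of 18 synthetases and 14.6% of all genes. Among the subunits, Eif3a (0.81), Eif3f (0.80) and Eif3d (0.73) were closest to the ribosomal proteins, and Eif3g was at 0.06. The eIF3 sum also had a rho of 0.79 with the genes of dividing cells, whose sum was highest in CPC1, CPC8 and CPC9, followed by CPC2, CPC5 and CPC12. In CPC12 Mki67 and Top2a were at 2.28 and 7.91 CPM, below their medians of 9.85 and 30.2 CPM.

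**Figure D4:**
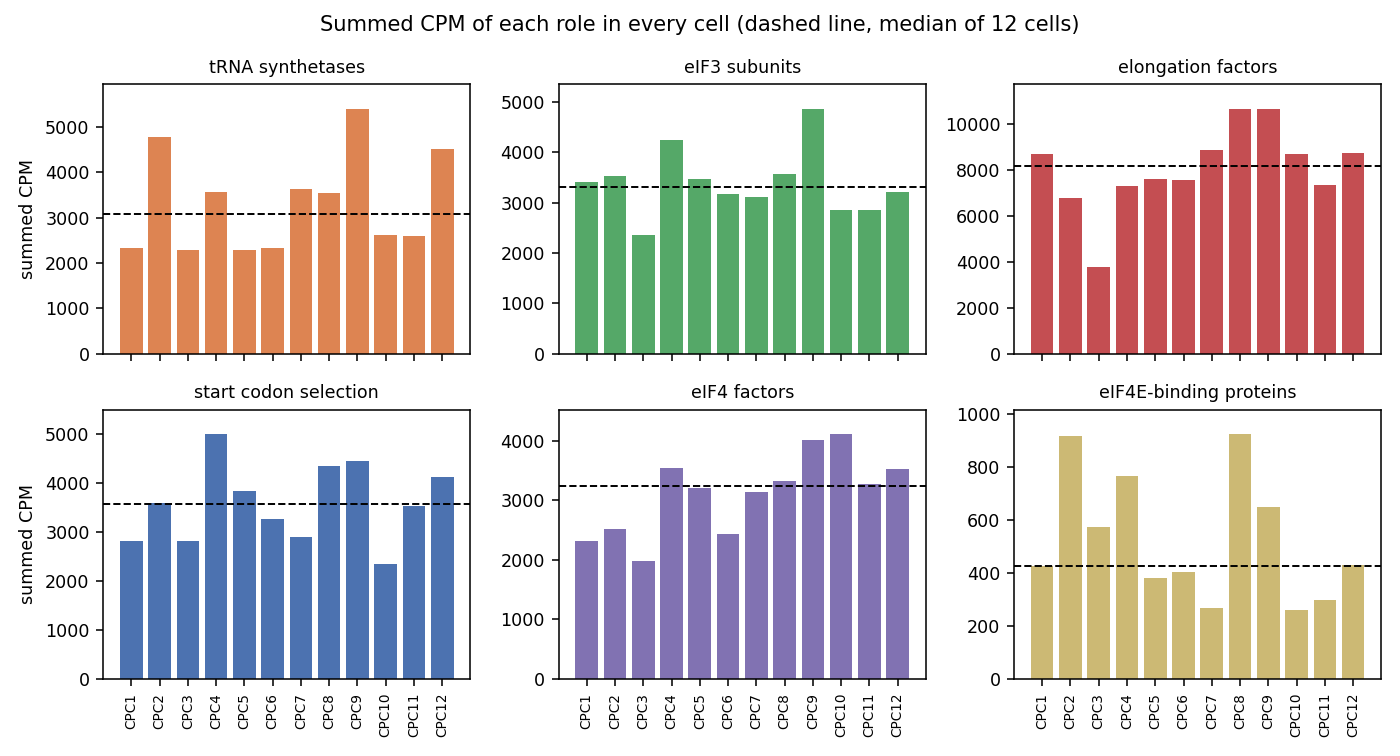
Summed CPM of 6 roles in each of the 12 cells; bars start at 0 and the dashed line is the median of 12 cells. On this scale CPC3 is lowest for synthetases, eIF3, elongation and eIF4 factors, and CPC9 is highest for synthetases, eIF3 and elongation factors. By median-of-ratios size factors CPC3 stays lowest for the elongation factors only, and CPC8 is highest for them.

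Among the eIF4 factors the scaffold Eif4g2, which lacks the site for the cap-binding protein, outweighed the classical scaffold Eif4g1. Eif4g2 ran from 604 (CPC3) to 1999 CPM (CPC10), with a median of 1362 CPM. The high cell was the one with endothelial markers, and the next cell was at 1712 CPM. Eif4g1 ran from 108 (CPC6) to 274 CPM (CPC9), with a median of 183 CPM. Per kilobase Eif4g2 was higher in 12 of 12 cells, by 2.14-fold in CPC3 to 7.97-fold in CPC4, with a median of 5.42-fold. Eif4g1 in turn exceeded Eif4g3 in each cell, by a median of 7.89-fold per exon kilobase and 4.95-fold by transcript length. The helicase Eif4a1 exceeded its paralogue Eif4a2 in each cell per exon kilobase, by a median of 4.13-fold, or 2.84-fold by transcript length, which brings CPC3 to about equal levels. The ratio per exon kilobase ran from 1.44 in CPC3 to 13.1 in CPC8. Eif4a1 was at 283 (CPC3) to 1015 CPM (CPC9), with a median of 493 CPM. Eif4h, a helper of the helicase, was at 137 (CPC3) to 375 CPM (CPC11), with a median of 314 CPM.

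The cap-binding proteins differed in how evenly they were expressed. Eif4e2, a cap-binding protein known to repress translation, ran from 126 (CPC3) to 185 CPM (CPC4), with a median of 167 CPM. Its residual of -1.14 was the lowest of all members, and 3 of the 9701 genes with a residual lay lower. Eif4e, the cap-binding subunit of initiation, ran from 129 (CPC7) to 354 CPM (CPC8), with a median of 229 CPM, and had a residual of -0.10. Its level had a rho of 0.87 with the genes of dividing cells, the highest of all members for that sum. Eif4e3 had at most 30 counts in a cell. Eif4b and Eif4a1 had the largest residuals of the role, 0.11 and 0.02, with Eif4b lowest in CPC3 at 38.5 CPM and highest in CPC9 at 329 CPM. The eIF4 sum had a rho of 0.64 with the total count of the cell, the largest among the 5 roles compared with it, and the part of depth in this sum was not tested.

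Of the proteins that hold back eIF4E, Eif4ebp1 made up nearly all counts. It ran from 226 (CPC7) to 862 CPM (CPC8), with a median of 379 CPM, and CPC2, CPC8 and CPC4 were high, at 854, 862 and 730.2 CPM. Its residual was 0.28, the highest outside the synthetases. Eif4ebp1 is also known as an Atf4 target, and its rho was 0.61 with the Atf4 target sum and 0.74 with the genes of dividing cells. Eif4ebp2 was at 13.3 CPM or less, and Eif4ebp1 exceeded it per kilobase in 12 of 12 cells. Eif4enif1, which carries eIF4E into the nucleus, ran from 9.95 (CPC10) to 58.0 CPM (CPC8), with a median of 36.3 CPM. The 11 genes of the mTOR kinase, its partners and regulators, its S6 kinases and the eIF4E kinases Mknk1 and Mknk2 had a sum that ran from 463 CPM in CPC1 to 626 CPM in CPC2, with a median of 558 CPM, and 8 of them were counted in all cells.

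**Figure D5:**
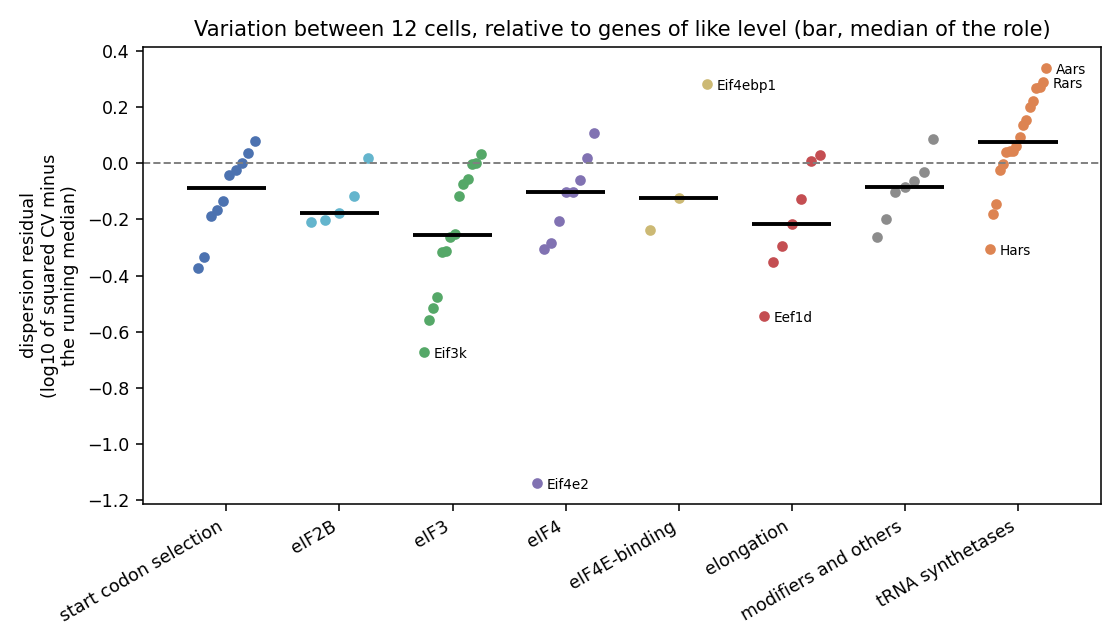
Dispersion residual of the 73 members with a mean of 5 CPM or more, by role; bars are medians of the role and the dashed line at 0 is the running median of genes of like level. Synthetases are centred at 0.08 and eIF3 subunits at -0.26, and Eif4e2 is lowest at -1.14.

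The elongation factors, with Eif5a, had sums from 3805 CPM in CPC3 to 10677 CPM in CPC9, with a median of 8182 CPM. CPC3 was far below the rest, and without it the highest cell exceeded the lowest by 1.57-fold, against 2.81-fold with it. Eef1a1 (chromosome 9, 78478449 to 78489151, mm10) ran from 1594 (CPC3) to 5138 CPM (CPC10), with a median of 4102 CPM. Eef2, which moves the ribosome by 1 codon, ran from 374 (CPC3) to 1707 CPM (CPC8), with a median of 972 CPM. Both were lowest in CPC3, but Eef1a1 was highest in CPC10, the cell with endothelial markers, with the next cell at 4641 CPM, and Eef2 was highest in CPC8.

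The subunits of the exchange factor of eEF1A differed in their spread. Eef1g ran from 267 (CPC3) to 779 CPM (CPC9), with a median of 603 CPM. Eef1b2 ran from 205 (CPC3) to 698 CPM (CPC8), with a median of 419 CPM. Eef1d ran from 195 (CPC11) to 398 CPM (CPC7), with a median of 332 CPM. Eef1d was the evenest elongation factor, with a residual of -0.54, and Eef1b2 had 0.01. Eef1b2 followed the ribosomal proteins most closely of all members (rho 0.88), whereas Eef1a1 had 0.06. Eif5a ran from 1106 (CPC3) to 3109.7 CPM (CPC9), with a median of 1782 CPM, and it had a rho of 0.78 with the synthetase sum. Eif5a2 ran from 0 in CPC7 and CPC10 to 35.0 CPM in CPC4, and Eif5a was higher in 12 of 12 cells. Eef1a2 had no count, so Eef1a1 was the eEF1A form detected at this depth.

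The 9 members known as TOP mRNAs (Eef1a1, Eef1b2, Eef1d, Eef1g, Eef2, Eif3e, Eif3f, Eif3h and Eif4b) had a median pair rho of 0.43, with 34 of 36 pairs (94.4%) positive. Over the pairs of all members the median was 0.20 with 72.8% positive, and over all gene pairs 0.02 with 52.3% positive. The ribosomal protein genes themselves had 0.53 over the 2926 pairs of those with a residual. Without CPC3 and CPC5, the cells farthest from the median of the ribosomal protein sum, Pearson's r between the TOP members and the ribosomal proteins fell from 0.63 to 0.30.

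The remaining 7 members have roles outside these steps. Eif6, which keeps ribosomal subunits apart, ran from 133 (CPC6) to 428 CPM (CPC9), with a median of 236 CPM. Eif4a3, the helicase of the exon junction complex, ran from 162 (CPC3) to 431 CPM (CPC8), with a median of 224 CPM, and its rho with the genes of dividing cells was 0.75. Eef1akmt1, a methyltransferase of eEF1A, had a lowest, median and highest level of 44.7, 87.9 and 128 CPM. Eif1ad had the largest residual of these genes, 0.09, followed by Eif4a3, -0.03, and Eef1akmt1 the smallest, -0.26. Banf1 covers 16.7% of the Eif1ad exon bases on the opposite strand. As the strand rule of the counting is not given, part of the Eif1ad count may belong to Banf1. Eef2k, which blocks eEF2, ran from 1.93 (CPC12) to 31.2 CPM (CPC10), with a median of 12.6 CPM.

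Other steps of translation were set beside the members. The 17 mitochondrial synthetases had sums from 559 CPM in CPC12 to 1225 CPM in CPC5, with a median of 671 CPM, and 8 of them were counted in all cells. Their sum had a rho of 0.03 with that of the cytosolic synthetases, and their pairs a median rho of 0.05. Lars2 held much of this sum, at up to 879.9 CPM in CPC5. The 6 genes of termination, recycling and poly(A) binding were counted in every cell and had sums from 1190.0 CPM in CPC3 to 2283 CPM in CPC5, with a median of 1361 CPM. The 9 mitochondrial translation factors had sums from 223 CPM in CPC12 to 454 CPM in CPC8, with a median of 287 CPM.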

How the data were processed

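Polyadenylated RNA of 12 single cells was measured by full-length cDNA sequencing. The authors deposited raw counts per gene in 1 table. Per the study's methods, reads were aligned to mm10 with STAR 2.5.2b at default settings and uniquely mapped reads were kept. The counting program, annotation and strand rule are not given in the sources used here. Counts were scaled to CPM per cell. A dispersion residual was computed for genes with a mean of 5 CPM or more that were counted in at least 3 cells, and Spearman's rho was taken across the 12 cells. Gene positions and exon lengths came from GENCODE vM21 (GRCm38), promoters from RefSeq, and pseudogene matches from blastn 2.17.0. Python 3.11.15, numpy 2.4.6, pandas 2.3.3 and scipy 1.17.1 were used. The residual and correlation steps were tested on simulated data. Within each role, the 3 members with the highest median CPM, the 2 largest and the smallest residual were named, with every synthetase, elongation factor, eIF4E-binding gene, undetected member and listed paralogue pair. Genes named beside these, such as those nearest to a sum, were chosen after their values were seen. The members and lists were chosen with earlier results of these data known. A further match of the Atf4 element is not reported here.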

Additional observations from a re-analysis of the deposited data

How the results depend on the processing

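For 13 results, 223 values were recomputed under other settings, and 217 of them kept their direction and their tolerance, which was 1 SD over cells for a sum, the SD over pairs or members for a pair correlation or residual, the leave-one-out error for a correlation of sums and 1.5 times for a count or ratio. With the 50 most abundant genes of each cell left out of the total, the median initiation factor sum rose to 12033.5 CPM. With each gene weighted alike (mean of log2(CPM + 1)), a setting chosen after seeing the data, the correlation of the synthetase and Atf4 target sums was 0.58. Leaving out 1 cell at a time gave 1.57 to 2.81 for the highest over the lowest elongation factor sum, where the low end was the value without CPC3, and the value was also 1.57 when both CPC3 and CPC10 were left out, another setting chosen after seeing the data. With both left out, the correlation of eIF3 with the ribosomal proteins was 0.60. The median pair correlation of the synthetases that are not listed as Atf4 targets was 0.14 and ran from -0.027 (without CPC9) to 0.28 (without CPC1) when 1 cell was left out. Leaving out 1 cell moved the median synthetase sum between 2614 (without CPC2) and 3547 CPM (without CPC1), because the median falls in the step between the ranges. The causes of the other shifts were not tested. No paired analysis was possible because there is 1 group. Depth is a limit for Eef1a2 and Eif4e1b, which had no count and whose level could reach 0.527 to 0.869 CPM. Eif4ebp3 also had no count, but its reads may have been dropped or given to the gene that overlaps it, so this limit does not bound its level.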
